A study of Danio rerio with 16 samples.

Results

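The hearts described here were those of adult zebrafish mutant for tert, taken 3 days after cryoinjury (KO_Cryoinjury) and compared with uninjured hearts of the same mutant line (KO_Ctrl). The gene tert encodes the catalytic subunit of telomerase. The mutants carried the allele hu3430 on the AB strain and are called KO after the labels, and both groups shared the mutation, so the comparison measures injury in mutants and not the mutation. All fish were 6 to 9 months old, and every library was made from 3 pooled hearts, so a value is already an average over 3 fish. The 2 groups held 4 libraries each, 8 of the 16 libraries of the series, and all 14500 genes of the deposited table were compared. Zygosity and generation are not given here. The other 8 libraries came from wild-type (WT) hearts with and without the same injury and entered the model only for a shared estimate of the spread and for a test of the difference between genotypes.

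Cryoinjury kills part of the ventricle by contact with a cold probe. As background, zebrafish clear the dead tissue with neutrophils and macrophages, cover the wound with a temporary matrix laid down by epicardial cells and fibroblasts, and then replace lost muscle by division of surviving cardiomyocytes, which partly take down their contractile apparatus. Telomerase adds telomere repeats to chromosome ends with an RNA template that is held and matured by the dyskerin complex, and it is known to matter most in tissues whose cells divide.

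Values are the authors' normalised signal, called units here, in which a read was worth the same for every gene of a library. The KO libraries held 5611576 to 8809769 reads over the listed genes, the fewest being in KO_Cryoinjury library 3, and replicates differed by more than sampling noise. Every change below is a difference of mean log2(value + 1) between KO_Cryoinjury and KO_Ctrl, which understates changes of low genes. A gene was called higher or lower when its limma p, with Benjamini-Hochberg adjustment over the 14500 genes, was under 0.05. The hearts carried the muscle genes that define the tissue, with the cardiac myosin light chain gene myl7 at 11480.00, 10389.7, 12889 and 13794 units in KO_Cryoinjury libraries 1 to 4 and at 20794, 17559, 19333 and 24270.3 units in KO_Ctrl libraries 1 to 4. The share of reads in the 10 top genes was 15.7 to 18% in injured hearts and 22.4 to 23.1% in uninjured hearts. Scaling by library totals alone would raise the median change of all genes by 0.211 on the log2 scale, and the authors' scaling was kept.

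The targeted gene was reported first. Transcripts of tert were at 6.25, 6.79, 6.84 and 6.46 units in the 4 KO_Cryoinjury libraries and at 6.45, 5.65, 6.56 and 5.69 units in the 4 KO_Ctrl libraries. The groups overlapped, and the log2 change of 0.10 (SE 0.18, limma adjusted p = 0.674) was not called. In WT hearts the change of tert after injury was 0.74. The difference between genotypes was -0.64 (SE 0.25, limma adjusted p = 0.550), which was not called either. As background, hu3430 is a nonsense allele, a single changed base that ends the protein early, so the level of tert transcripts does not check the loss of the protein.

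KO_Cryoinjury libraries 1 and 2 stood apart from the other injured libraries in genes of skin and other epithelia. The keratin gene krt5, a marker of basal epidermis, was at 337, 887, 12 and 75.4 units in KO_Cryoinjury libraries 1 to 4 and at 38.13, 19.1, 46.8 and 38.2 units in the KO_Ctrl libraries. Libraries 1 and 2 were above all controls, library 3 was below all of them and library 4 was above them by less. The epithelial adhesion gene epcam was at 10.1, 45.8, 0.167 and 3.9 units in the KO_Cryoinjury libraries and at 1.95, 0.404, 1.83 and 1.76 units in the KO_Ctrl libraries, with the same order among the injured libraries. The epidermal claudin gene cldni was at 21.2, 53.3, 0.501 and 9.58 units in the KO_Cryoinjury libraries, against 1.2, 0.404, 0.61 and 1.37 units in the KO_Ctrl libraries. For tp63, the transcription factor of basal epithelium, the values were 16.5, 34.4, 8.68 and 11.9 units in the KO_Cryoinjury libraries and 10.1, 14.9, 12.3 and 9.61 units in the KO_Ctrl libraries, so libraries 1 and 2 were above the controls and library 3 was below them. Together these 4 defining skin markers summed to 384, 1021, 21.4 and 101 units in the KO_Cryoinjury libraries and to 51.3, 34.9, 61.6 and 51 units in the KO_Ctrl libraries. Neither krt5 (log2 change 1.91, adjusted p = 0.0988) nor epcam (1.63, adjusted p = 0.0804) was called by limma. Without libraries 1 and 2 their changes were -0.14 and 0.00, which average library 3 below all controls and library 4 above them. The gene cldni was called with all libraries (2.67, limma adjusted p = 0.00772). Without libraries 1 and 2 cldni kept its sign but was not called (limma adjusted p = 0.208). Libraries 1 and 2 were set aside for their high levels of such genes, so smaller changes without them follow from that choice.

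**Figure D1:**
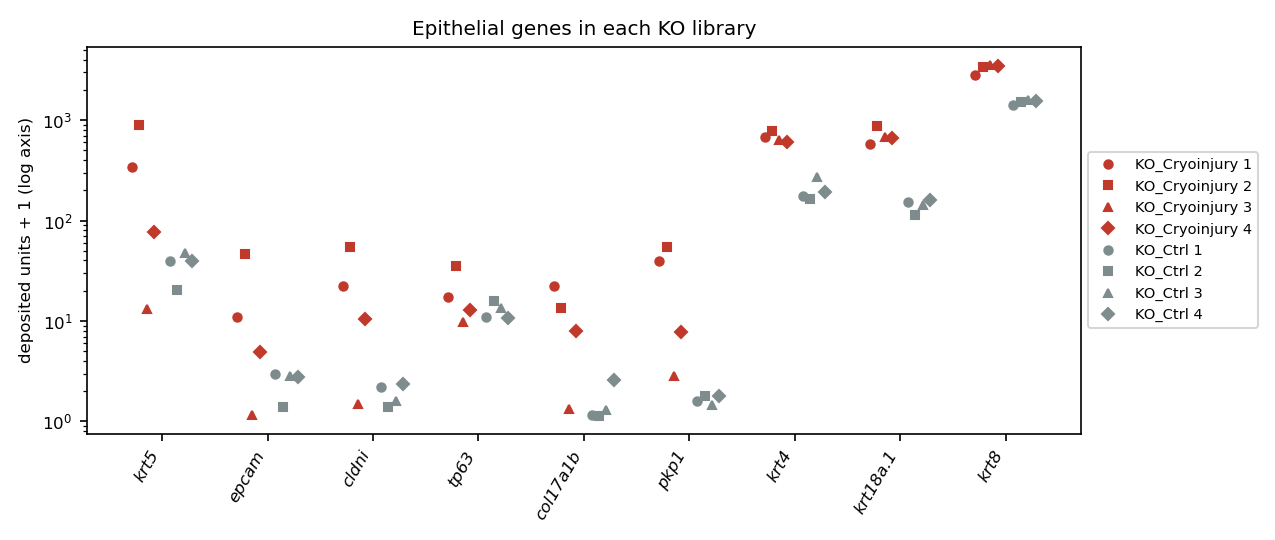
Deposited value + 1 of 9 epithelial genes on a log axis (units), 1 point per library, KO_Cryoinjury libraries in red and KO_Ctrl libraries in grey. In krt5, epcam, cldni and tp63 libraries 1 and 2 of KO_Cryoinjury are the highest and library 3 the lowest of the injured ones, whereas krt4, krt18a.1 and krt8 are at similar levels in all 4 injured libraries.

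Each result was therefore computed both ways, from all 4 KO_Cryoinjury libraries and from libraries 3 and 4 alone against the same 4 KO_Ctrl libraries. A change is said to have held when limma called it in the same direction both times. With all libraries, 3649 genes (25.2% of those tested) were higher and 3253 (22.4%) were lower in KO_Cryoinjury hearts. Without libraries 1 and 2, 2963 genes (20.4%) were higher and 2483 (17.1%) were lower, and 2862 rises (19.7% of all genes) and 2295 falls (15.8%) held. Counts of list members below are to be read beside these shares. Of the rises, 78.4% held, as did 70.6% of the falls, and the 1745 calls that did not hold all kept their sign. KO_Cryoinjury libraries 3 and 4 and the controls enter both comparisons, so agreement between them is no separate support for a call. The rises were larger than the falls, since 1448 genes (9.99%) were over 2-fold higher on this scale and 267 (1.84%) over 2-fold lower, of which 1382 (9.53% of all genes) and 242 (1.67%) held. The median change of all genes was -0.016, and -0.015 without libraries 1 and 2, and the median absolute difference of a gene's change between the fits was 0.086. The reduced comparison has 2 injured libraries, whose spread is taken to be that of the other groups. A lost call can thus come from fewer libraries as well as from a smaller change, and these cannot be told apart. Library 4, which stays in the reduced comparison, was above all controls in krt5, epcam and cldni. A change that held is therefore not shown to be free of epithelial signal.

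**Figure D2:**
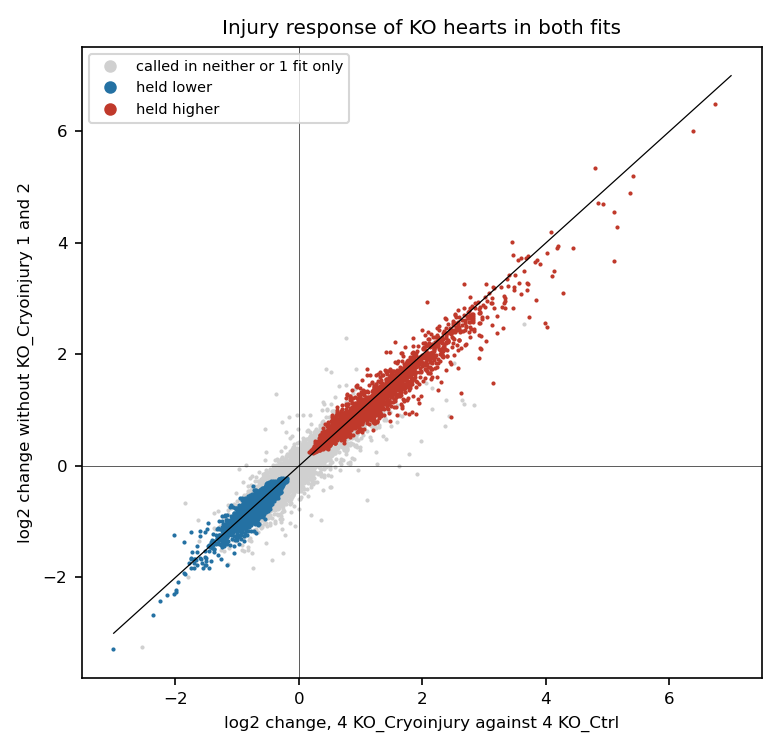
Log2 change of each of the 14500 genes, KO_Cryoinjury minus KO_Ctrl, from all 4 injured libraries (x axis) and without KO_Cryoinjury 1 and 2 (y axis), with the line of equality; red and blue points are the 2862 rises and 2295 falls that held and grey points all other genes. The points run along the line, and rises reach further from 0 than falls.

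Among the gene lists the fibrillar collagens had the largest median rise, and the other matrix lists rose less. Most changes of matrix genes held without libraries 1 and 2. Of 14 measured genes of other collagens 9 rose and 0 fell, and 7 rises held (median 0.90 and 0.85). All 8 measured fibrillar collagen genes, which encode the load-bearing fibres of scar and connective tissue, were called higher, and 7 held (median log2 change 2.53, and 2.46 without libraries 1 and 2). Summed, they came to 4954, 7064, 5867 and 4802 units in the KO_Cryoinjury libraries and to 856, 967, 1199 and 969 units in the KO_Ctrl libraries. The type I collagen gene col1a1a was at 1243, 1655, 1422 and 1122 units in KO_Cryoinjury libraries 1 to 4 and at 165, 198, 261 and 188 units in KO_Ctrl libraries 1 to 4. Its groups did not overlap, and the log2 change was 2.74 (SE 0.19, limma adjusted p = 7.68e-09). The minor fibrillar collagen gene col11a1b, which helps set fibre diameter, was at 41.3, 52.8, 35.7 and 27.4 units in the KO_Cryoinjury libraries and at 0.15, 1.08, 2.29 and 1.76 units in the KO_Ctrl libraries. It was low in uninjured hearts, and its change was 4.18 (SE 0.27, limma adjusted p = 3.17e-09), or 3.90 without libraries 1 and 2. In bulk tissue a change in the number of cells of a type and a change in the RNA of each cell cannot be told apart, here and in all that follows.

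Of 47 measured genes of the provisional matrix, 32 rose and 2 fell, and 28 rises and 2 falls held (median 0.94, and 0.79 without libraries 1 and 2). The 2 largest rises of the list kept most of their size, since fn1 (ENSDARG00000019815), a fibronectin gene, changed by 5.41 and 5.19 and tnc, the tenascin C gene, by 4.92 and 4.70 in the full and the reduced comparison. For vcanb, which encodes a large proteoglycan of soft matrix, the values were 154, 94, 50.1 and 67.4 units in the KO_Cryoinjury libraries and 7.66, 6.33, 11 and 8.43 units in the KO_Ctrl libraries. Library 1 was the highest of the injured ones, all of them were above the controls, and the change was 3.2 (SE 0.26, limma adjusted p = 4.6e-08), or 2.68 without libraries 1 and 2.

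Enzymes that fold, modify and crosslink collagen rose with it. Of 22 measured genes, 15 rose and 0 fell, and all 15 rises held (median 1.04 and 0.98). The lysyl oxidase-like gene loxl2a, whose product crosslinks collagen, was at 40.7, 60.1, 80.3 and 46.3 units in the KO_Cryoinjury libraries and at 5.85, 3.23, 1.83 and 5.49 units in the KO_Ctrl libraries. Library 3 was the highest, the groups did not overlap, and the change was 3.54 (SE 0.31, limma adjusted p = 1.09e-07) and 3.69 without libraries 1 and 2. For plod2, a lysyl hydroxylase that prepares those crosslinks, the values were 92.1, 129.8, 129 and 109 units in the KO_Cryoinjury libraries and 19.5, 14.3, 23.6 and 21 units in the KO_Ctrl libraries. The change of plod2 was 2.5 (SE 0.14, limma adjusted p = 1.06e-09).

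Among metalloproteinases, which cut matrix, and their inhibitors, 19 of 26 rose and 2 fell, and 18 rises and 1 fall held (median 0.81 and 0.84). The gelatinase gene mmp9 was at 106, 442, 21.7 and 39.6 units in KO_Cryoinjury libraries 1 to 4, against 0.751, 1.48, 1.07 and 2.55 units in KO_Ctrl libraries 1 to 4. Libraries 1 and 2 were far above libraries 3 and 4, which were still above every control. The change was 5.1 (SE 0.63, limma adjusted p = 4.7e-06) with all libraries and 3.68 (SE 0.42, limma adjusted p = 1.01e-05) without libraries 1 and 2. The collagenase gene mmp13a was at 14.2, 212, 10.3 and 4.45 units in the KO_Cryoinjury libraries and at 0.3, 0.135, 0 and 1.18 units in the KO_Ctrl libraries. Library 2 alone held most of the signal, and the change was 3.98 with all libraries and 2.56 (adjusted p = 0.000245) without libraries 1 and 2. Leaving out library 2 alone gave 2.87. The gene adam8a, of a leukocyte surface protease, was at 82.2, 188, 53.2 and 66.6 units in the KO_Cryoinjury libraries and at 2.25, 3.77, 3.96 and 2.35 units in the KO_Ctrl libraries, changes of 4.44 and 3.92. The sums of the 4 defining skin markers given above were highest in the same libraries 1 and 2, and their part in these sizes was not tested.

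Macrophage and monocyte genes rose almost as a block. Of 49 measured markers, 45 rose, 1 fell and 44 rises held, against 25.2% and 19.7% of all genes, and the median was 1.94 in both comparisons. Their summed signal was 4372, 4873, 4575 and 4304 units in the KO_Cryoinjury libraries and 1477, 1609.7, 1360.1 and 1406 units in the KO_Ctrl libraries, so the 4 injured libraries lay close together. The granulin gene grna.1, of a growth factor precursor abundant in phagocytes, was at 243, 381, 205 and 161 units in the KO_Cryoinjury libraries and at 1.35, 1.21, 0.762 and 6.08 units in the KO_Ctrl libraries. Its change of 6.38 (SE 0.36, limma adjusted p = 9.19e-10) was the largest among genes with a symbol of their own, and it was 6.01 without libraries 1 and 2. Its neighbour in name, grna.2, was at 74.1, 123, 51.7 and 47.7 units in the KO_Cryoinjury libraries, against 0.45, 0.942, 0 and 1.96 units in the KO_Ctrl libraries, and reads of such close copies may have been split between them. For apoeb, an apolipoprotein E gene of phagocytes that take up dying cells, the values were 250.1, 381, 99.6 and 209 units in the KO_Cryoinjury libraries and 4.35, 4.98, 5.79 and 5.69 units in the KO_Ctrl libraries, and its changes were 5.1 and 4.56. The cathepsin S gene ctss2.1, of a protease of antigen-presenting cells, was at 94.2, 127, 97.1 and 129 units in the KO_Cryoinjury libraries and at 9.91, 9.16, 10.1 and 9.22 units in the KO_Ctrl libraries. It differed little among the injured libraries, and its change was 3.40 (SE 0.15, limma adjusted p = 9.02e-11).

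Neutrophil markers also rose, with a wider spread among the injured libraries. Of 18 measured, 15 rose and 1 fell, and 13 rises and 1 fall held (median 1.77 and 1.71). The list was highest in KO_Cryoinjury library 2, with sums of 1082, 1901, 907 and 900.4 units in the KO_Cryoinjury libraries and 536, 555, 584 and 548 units in the KO_Ctrl libraries. It shares mmp9, mmp13a and adam8a with the metalloproteinase list, so the counts and sums of these lists are not independent. In library 2 the sum includes 442 units of mmp9 and 212 units of mmp13a. The neutrophil granule gene npsn was at 6.56, 11.7, 17.5 and 4.79 units in the KO_Cryoinjury libraries, against 0.751, 1.75, 1.07 and 1.37 units in the KO_Ctrl libraries. Its groups did not overlap, but its change of 2.19 (adjusted p = 0.0292) was not called without libraries 1 and 2, where it was 2.23 (adjusted p = 0.097). The call was also lost when KO_Cryoinjury library 2 or 3, or KO_Ctrl library 1 or 3, was left out alone. Of 18 measured pan-leukocyte genes 16 rose, none fell and 15 rises held. Of 5 measured lymphocyte genes 4 rose and all 4 held, too few to describe that lineage.

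Of 44 measured cytokines, chemokines and receptors, 28 rose and 3 fell, and 24 rises and 3 falls held (median 0.88 and 0.80). Of 37 genes of complement, coagulation and serpins, 26 rose and 3 fell, and 23 rises and 1 fall held. The gene plaua, of a urokinase-type plasminogen activator, was at 10.7, 53.5, 9.35 and 5.9 units in the KO_Cryoinjury libraries and at 0.901, 0.942, 0.762 and 0.588 units in the KO_Ctrl libraries. Library 2 was far above the other 3 injured libraries, and the change was 3.03 with all libraries and 2.24 without libraries 1 and 2. Of 67 lysosomal genes 43 rose and 6 fell, and 38 rises (56.7%) and 5 falls (7.46%) held, beside 19.7% and 15.8% of all genes.

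Of 64 measured genes of the interferon response and innate sensing, 35 rose and 3 fell, and 22 rises and 3 falls held (median 0.59, and 0.41 without libraries 1 and 2). The guanylate-binding protein gene gbp1 was at 32.5, 52.6, 39.6 and 33.2 units in the KO_Cryoinjury libraries and at 7.81, 9.42, 6.86 and 9.02 units in the KO_Ctrl libraries, similar in all injured libraries, with a change of 2.11 (SE 0.14, limma adjusted p = 4.76e-09). The antiviral dynamin-like gene mxc was at 15.2, 69.5, 6.84 and 6.79 units in the KO_Cryoinjury libraries and at 0.901, 0, 0 and 0.196 units in the KO_Ctrl libraries. It was held, but library 2 carried most of its signal, and its change was 3.73 with all libraries and 2.67 without libraries 1 and 2.

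The genes psmb12 and psmb9 of the inducible proteasome, which trims peptides for antigen presentation, were highest in libraries 1 and 2. For psmb12 the values were 19.8, 19.4, 6.34 and 5.9 units in the KO_Cryoinjury libraries and 4.2, 2.96, 4.12 and 0.98 units in the KO_Ctrl libraries, so that libraries 1 and 2 were far above libraries 3 and 4. Its change of 1.67 (SE 0.60, limma adjusted p = 0.0295) became 0.90 (SE 0.70, limma adjusted p = 0.335) without libraries 1 and 2. The call was also lost when KO_Cryoinjury library 1 or 2, or KO_Ctrl library 2 or 4, was left out alone. The subunit gene psmb9 was at 12.5, 14, 7.01 and 5.46 units in the KO_Cryoinjury libraries and at 2.4, 1.75, 2.9 and 2.55 units in the KO_Ctrl libraries. It too was not called without libraries 1 and 2 (1.59 with them and 1.09 without). In both psmb12 and psmb9, libraries 3 and 4 were still above every control. Of 41 measured genes of the constitutive proteasome, which every cell uses, 30 rose and 1 fell, and 26 rises and 0 falls held (median 0.40 and 0.42). The alpha-ring subunit gene psma4 was at 71.7, 89.6, 84.1 and 77.4 units in the KO_Cryoinjury libraries and at 43.8, 45.6, 42.8 and 46.1 units in the KO_Ctrl libraries, with a change of 0.84 (SE 0.09, limma adjusted p = 7.26e-07) and no split between libraries 1 and 2 and libraries 3 and 4.

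Most genes of mitosis and of DNA replication rose. Of 86 mitosis and cytokinesis genes 80 rose and 0 fell, and 76 rises held (median 1.86 and 1.72). Their sums were 1066, 1316, 1117 and 1009 units in the KO_Cryoinjury libraries and 555, 511, 498 and 505 units in the KO_Ctrl libraries. The nuclear import gene kpna2, which is induced in dividing cells, was at 39, 58.4, 41.2 and 35 units in the KO_Cryoinjury libraries and at 1.8, 2.83, 2.59 and 2.74 units in the KO_Ctrl libraries. Every injured library was far above every control, and the change was 3.65 (SE 0.26, limma adjusted p = 1.16e-08) and 3.49 without libraries 1 and 2. For anln, whose product anillin scaffolds the cleavage furrow, the values were 28.8, 40.5, 34.4 and 25.6 units in the KO_Cryoinjury libraries and 3, 2.29, 3.35 and 3.33 units in the KO_Ctrl libraries. Its change was 3.05 (SE 0.22, limma adjusted p = 1.26e-08). Of 60 replication genes 47 rose and 0 fell, and 40 rises held (median 0.89 and 0.88). The topoisomerase gene top2a, needed to separate copied chromosomes, was at 24.1, 39.2, 32.5 and 27.3 units in the KO_Cryoinjury libraries and at 2.55, 2.15, 2.13 and 1.37 units in the KO_Ctrl libraries. The replicative helicase gene mcm6 was at 23.9, 30.1, 32.5 and 17.9 units in the KO_Cryoinjury libraries, against 3, 2.96, 3.51 and 2.94 units in the KO_Ctrl libraries, changes of 3.37 for top2a and 2.69 for mcm6. Of 48 cyclins, kinases, E2F factors and their inhibitors, 15 rose and 8 fell (median 0.10), a list that also holds genes of resting cells. There 29.2% held higher and 8.33% lower, beside 19.7% and 15.8% of all genes.

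Because telomerase is the mutated enzyme, the called genes of its partners are named in both directions. Of 25 measured telomerase and telomere genes 8 rose and 2 fell, and all 8 rises and 2 falls held, shares of 32% and 8% beside 19.7% and 15.8% of all genes (median 0.13 and 0.01). The rises were dkc1, gar1 and nhp2 of the dyskerin complex, which also modifies ribosomal RNA, ruvbl1 and ruvbl2 of its assembly factors, and terfa, terf1 and pinx1, whose products bind telomeres or their binding proteins. The dyskerin gene dkc1 was at 29.9, 28.8, 33.9 and 31.1 units in the KO_Cryoinjury libraries and at 9.61, 13.1, 13.7 and 13.1 units in the KO_Ctrl libraries. Every injured library was far above every control, and the change was 1.26 (SE 0.11, limma adjusted p = 1.22e-07) and 1.33 without libraries 1 and 2. Its partner gene gar1 was at 18.3, 18.5, 19.4 and 21.9 units in the KO_Cryoinjury libraries and at 7.81, 9.56, 11.6 and 8.82 units in the KO_Ctrl libraries, with a change of 0.98 (SE 0.13, limma adjusted p = 6.53e-06). The third partner measured, nhp2, was at 21.2, 17.3, 17.4 and 18.7 units in the KO_Cryoinjury libraries and at 13.7, 12.12, 14.3 and 14.3 units in the KO_Ctrl libraries, a smaller change of 0.43 that held. The helicase gene ruvbl1 changed by 0.49 and terfa, of a shelterin protein that coats telomeres, by 0.45. The falls were dclre1b, of a nuclease that trims telomere ends, with a change of -0.46, and tnks (ENSDARG00000062897), of tankyrase, with a change of -0.20 that is smaller in size than the 0.211 by which scaling by library totals moves the median gene. As given above, tert itself was not called.

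Dyskerin genes belong as well to the nucleolus, where ribosomes are made. Of 72 nucleolar genes 30 rose and 8 fell, and 22 rises (30.6%) and 7 falls (9.72%) held, beside 19.7% and 15.8% of all genes (median 0.24). The nucleophosmin gene npm1a, a ribosome assembly chaperone, was at 109, 132, 136 and 120.4 units in the KO_Cryoinjury libraries and at 61.1, 52.6, 72.9 and 62 units in the KO_Ctrl libraries, a change of 0.99 (SE 0.13, limma adjusted p = 1.15e-05). The genes of cytoplasmic ribosomal proteins stood apart from this, with 2 of 67 called higher and 3 lower (median 0.04), far fewer calls than the 25.2% and 22.4% of all genes.

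Genes of the DNA damage response were called in both directions, at a share near that of all genes for rises and below it for falls. Of 72 measured 22 rose and 11 fell, and 18 rises and 6 falls held (median 0.14), beside 19.7% and 15.8% of all genes. The growth arrest gene gadd45g was at 89.2, 71.7, 149 and 152 units in the KO_Cryoinjury libraries and at 210.00, 336, 362 and 335 units in the KO_Ctrl libraries. All injured libraries were below all controls, libraries 1 and 2 most, and the change was -1.46 (SE 0.28, limma adjusted p = 0.000385) and -1.01 without libraries 1 and 2. Next to it gadd45b (ENSDARG00000027744) was at 85.2, 77.3, 107 and 156 units in the KO_Cryoinjury libraries and at 235, 369.8, 312 and 279.98 units in the KO_Ctrl libraries, with a change of -1.52. A second gene with that symbol, gadd45b (ENSDARG00000013576), rose by 0.99 in the same hearts, so copies of this gene moved in opposite directions.

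Early response transcription factors gave some of the most uneven values. Of 70 measured 30 rose and 12 fell, and 25 rises and 11 falls held. The held shares were 35.7% and 15.7%, beside 19.7% and 15.8% of all genes, so falls were as frequent as in all genes. The orphan nuclear receptor gene nr4a3 was at 88, 256, 228 and 492 units in the KO_Cryoinjury libraries and at 49.4, 9.42, 32.5 and 86.5 units in the KO_Ctrl libraries. Both groups spread widely, their ranges nearly touched, and the change was 2.68 (SE 0.52, limma adjusted p = 0.000409) and 3.26 (SE 0.57, limma adjusted p = 0.000447) without libraries 1 and 2. The fosl2 gene, of the AP-1 family of injury-induced factors, was at 148, 193, 105 and 136 units in the KO_Cryoinjury libraries and at 29.9, 14.9, 45.3 and 58 units in the KO_Ctrl libraries, with a change of 2.07 (SE 0.32, limma adjusted p = 5.15e-05). The glucocorticoid-induced chaperone gene fkbp5 was at 972, 1029, 1505 and 1306 units in the KO_Cryoinjury libraries and at 172, 84.7, 405 and 667 units in the KO_Ctrl libraries. Control libraries 1 and 2 were below libraries 3 and 4, all were below every injured library, and the change was 2.24 (SE 0.42, limma adjusted p = 0.000289) and 2.48 without libraries 1 and 2.

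**Figure D3:**
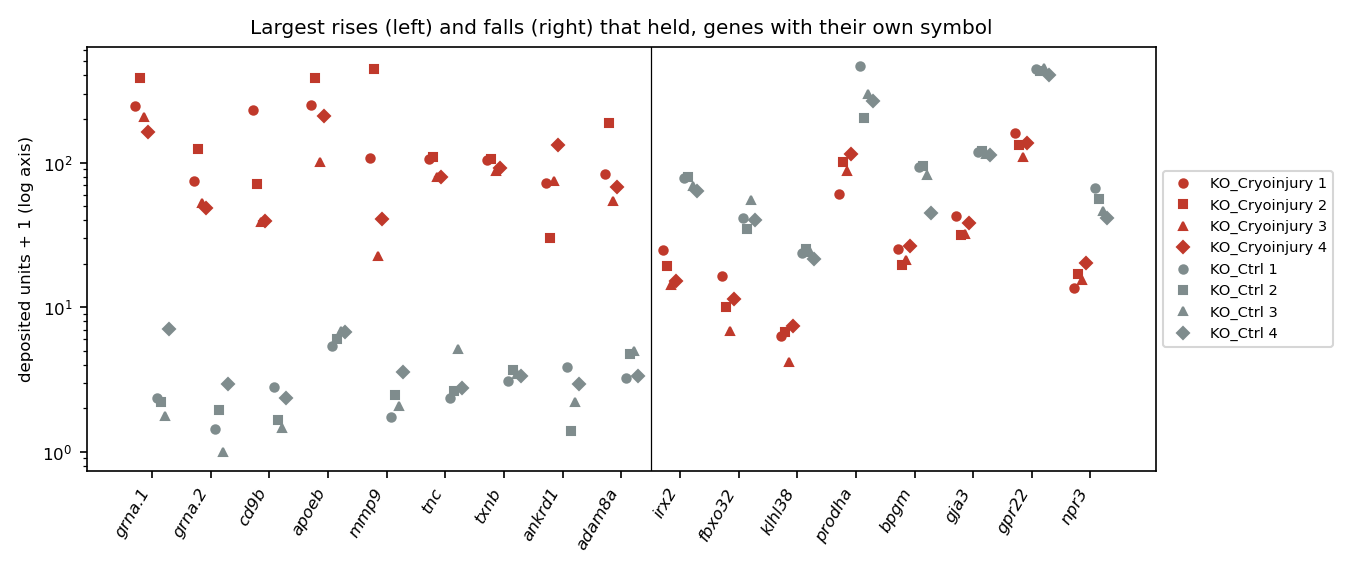
Deposited value + 1 on a log axis (units) of 9 of the 10 largest rises (left of the line) and 8 of the 10 largest falls (right) that held, those given in the text, among genes with a symbol of their own, a mean above the median gene and groups that do not overlap; 1 point per library, KO_Cryoinjury in red and KO_Ctrl in grey. The red points lie above all grey points on the left and below them on the right, and mmp9 spreads over the widest range among injured libraries.

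Sarcomere and Z-disc genes build and anchor the contractile filaments. Of 62 measured, 36 fell and 11 rose, and 28 falls and all 11 rises held. The median of these genes was -0.51, with -0.37 without libraries 1 and 2 and -0.27 with scaling by library totals. Their sums were 84529, 82042, 110931 and 117524 units in the KO_Cryoinjury libraries and 148074, 131052, 147419 and 163982 units in the KO_Ctrl libraries, lowest in libraries 1 and 2. The mean log2 level of the list, less the mean of the KO_Ctrl libraries, was -0.336, -0.451, 0.002 and 0.048 in the KO_Cryoinjury libraries and 0.012, -0.164, 0.026 and 0.126 in the KO_Ctrl libraries, so by this measure libraries 3 and 4 lay within the range of the controls. For myl7, whose values are given above, the change was -0.75 with all libraries and -0.61 without libraries 1 and 2. The muscle ubiquitin ligase gene trim63b, which marks sarcomere proteins for removal, was at 64.5, 37.3, 43.4 and 43.5 units in the KO_Cryoinjury libraries, against 169, 146, 155 and 101 units in the KO_Ctrl libraries, a change of -1.58 (SE 0.17, limma adjusted p = 1.16e-06).

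Other muscle genes rose. The gene ankrd1, of a stretch-induced repeat protein of the sarcomere, was at 71.4, 29.1, 73.8 and 131 units in the KO_Cryoinjury libraries and at 2.85, 0.404, 1.22 and 1.96 units in the KO_Ctrl libraries. Library 2 was the lowest of the injured ones, and the change was 4.80 (SE 0.33, limma adjusted p = 8.42e-09) with all libraries and 5.34 without libraries 1 and 2. A myosin heavy chain gene listed as myh6 (ENSDARG00000079564) was at 692, 391, 523 and 633 units in the KO_Cryoinjury libraries and at 85.9, 84.8, 74.4 and 66.3 units in the KO_Ctrl libraries, a change of 2.80 (SE 0.16, limma adjusted p = 9.19e-10), whereas another listed as myh6 (ENSDARG00000090637) was lower by limma, with a change of -0.64. The actin gene acta1 (ENSDARG00000036371), named for skeletal muscle actin, was at 171, 178, 384 and 515 units in the KO_Cryoinjury libraries and at 68.1, 57.1, 106 and 189 units in the KO_Ctrl libraries. Libraries 3 and 4 were far above libraries 1 and 2, which were below the highest control, and the change was 1.56 (SE 0.36, limma adjusted p = 0.00198) and 2.23 (SE 0.37, limma adjusted p = 0.000247) without libraries 1 and 2. The Z-disc repair gene xirp1 (ENSDARG00000030722) was also higher in libraries 3 and 4 than in libraries 1 and 2, at 1218, 1072, 2022 and 2500.2 units in the KO_Cryoinjury libraries and 631, 485, 819 and 1079 units in the KO_Ctrl libraries, with changes of 1.15 and 1.64. Libraries 3 and 4 also had the higher sarcomere sums and the lower sums of the 4 defining skin markers. The part of those differences in these sizes was not tested. The wider skin and other epithelial list summed to 9687, 12275, 10481 and 10132 units in the KO_Cryoinjury libraries, lowest in library 1.

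Of 66 measured genes of cardiac channels, pumps and calcium handling, 37 fell and 10 rose, and 31 falls and 7 rises held (median -0.42 and -0.30). Scaling by library totals gave a median of -0.20. The connexin gene gja3, of channels that pass current between cells, was at 41.6, 30.6, 30.9 and 37.2 units in the KO_Cryoinjury libraries and at 117, 119.96, 114 and 112 units in the KO_Ctrl libraries. The controls lay within a narrow range far above the injured hearts, and the change was -1.71 (SE 0.13, limma adjusted p = 1.47e-08) and -1.74 without libraries 1 and 2. The heart receptor gene gpr22 was at 159, 131, 108 and 135 units in the KO_Cryoinjury libraries and at 446, 427, 452 and 404 units in the KO_Ctrl libraries, a change of -1.70 (SE 0.11, limma adjusted p = 2.9e-09). The vasotocin receptor gene avpr1a (ENSDARG00000045788) was at 5.49, 4.77, 4.51 and 3.23 units in the KO_Cryoinjury libraries and at 27.2, 34.6, 20.6 and 20 units in the KO_Ctrl libraries. Its changes were -2.26 and -2.43.

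Of 52 measured transcription factors of the heart, 27 fell and 10 rose, and 21 falls and 6 rises held (median -0.44 and -0.38). With scaling by library totals the median was -0.22. The homeobox gene irx2 was at 23.8, 18.2, 13.2 and 14.1 units in the KO_Cryoinjury libraries and at 76.9, 79, 67.7 and 62.9 units in the KO_Ctrl libraries. Libraries 3 and 4 were lower than 1 and 2, and the change was -2.02 (SE 0.21, limma adjusted p = 7.55e-07) and -2.30 without libraries 1 and 2. For tbx5, which specifies heart chambers, the values were 37.7, 29.6, 24.9 and 33.3 units in the KO_Cryoinjury libraries and 94.7, 93.2, 86.3 and 89.6 units in the KO_Ctrl libraries, with a change of -1.52 (SE 0.12, limma adjusted p = 2.67e-08). The natriuretic peptide clearance receptor gene npr3 was at 12.5, 16, 14.5 and 19.3 units in the KO_Cryoinjury libraries and at 66.2, 54.8, 45 and 40.4 units in the KO_Ctrl libraries, a change of -1.66 (SE 0.28, limma adjusted p = 0.000122).

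Among muscle atrophy ligases, kelch proteins and related metabolic genes 14 of 37 fell and 8 rose, and 13 falls and all 8 rises held. The share that held higher was 21.6%, near the 19.7% of all genes, and the held falls stand beside 15.8% of all genes. The median of that list was -0.05, and it was 0.03 without libraries 1 and 2 and 0.19 with scaling by library totals. The ubiquitin ligase gene fbxo32, a marker of muscle wasting, was at 15.4, 8.96, 5.84 and 10.4 units in the KO_Cryoinjury libraries and at 40.4, 33.9, 54 and 39 units in the KO_Ctrl libraries. Its change was -1.99 (SE 0.20, limma adjusted p = 5.74e-07) and -2.26 without libraries 1 and 2. The muscle kelch gene klhl38 was at 5.34, 5.78, 3.17 and 6.46 units in the KO_Cryoinjury libraries, against 22.5, 24.2, 23.2 and 20.4 units in the KO_Ctrl libraries, a change of -1.96 (SE 0.24, limma adjusted p = 3.78e-06). The gene fkbp5, whose values are given above, is a member of this list too. Its rise of 2.24 held and was larger in size than the falls of fbxo32 and klhl38, so those falls do not stand for the list. Of the remaining largest falls, prodha, of the mitochondrial enzyme that degrades proline, was at 59.17, 100.5, 86.5 and 114 units in the KO_Cryoinjury libraries and at 462, 201, 297 and 267 units in the KO_Ctrl libraries, with a change of -1.73 (SE 0.25, limma adjusted p = 2.04e-05). The red cell enzyme gene bpgm was at 24.4, 18.6, 20.2 and 25.6 units in the KO_Cryoinjury libraries and at 91.9, 93, 80.5 and 43.9 units in the KO_Ctrl libraries, with a change of -1.71.

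Most measured genes of the respiratory chain and the citric acid cycle fell. Of 48 genes of respiratory complex I, the entry point of electrons into the chain, 46 fell and 0 rose, and 44 falls held, against 22.4% and 15.8% of all genes (median -0.63, and -0.51 without libraries 1 and 2). Complex I genes summed to 4787, 4769, 5616 and 5349.7 units in the KO_Cryoinjury libraries and to 8156, 7228, 8258 and 8770.4 units in the KO_Ctrl libraries. All injured sums were below all control sums, and those of libraries 1 and 2 were the lowest. The core subunit gene ndufs3 was at 143, 134, 153 and 143 units in the KO_Cryoinjury libraries and at 255, 235, 265 and 273 units in the KO_Ctrl libraries, a change of -0.84 (SE 0.07, limma adjusted p = 4.22e-08) and -0.79 without libraries 1 and 2. Of 59 genes of the other complexes 46 fell and 2 rose, and 43 falls and 2 rises held (median -0.56 and -0.44). Of 39 genes of the citric acid cycle and pyruvate entry 29 fell and 2 rose, and 26 falls and 2 rises held (median -0.52 and -0.42). The gene mpc1, of the carrier that brings pyruvate into mitochondria, was at 151, 138, 158 and 159.9 units in the KO_Cryoinjury libraries and at 282, 262, 296 and 316 units in the KO_Ctrl libraries, a change of -0.92 (SE 0.08, limma adjusted p = 5.23e-08). Of 67 mitochondrial ribosomal protein genes 45 fell, none rose and 25 falls held (median -0.37 and -0.31). With scaling by library totals these medians were smaller in size, at -0.40, -0.32, -0.28 and -0.15 in the order given.

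Among fuel genes falls were more than rises. Of 56 genes of fatty acid uptake and oxidation 30 fell and 8 rose, and 23 falls and 5 rises held (median -0.42 and -0.37). The rise of acsl4 (ENSDARG00000010752), an enzyme that activates polyunsaturated fatty acids, was the largest, at 64.5, 88.2, 65.9 and 62.9 units in the KO_Cryoinjury libraries and 7.21, 6.33, 8.84 and 6.27 units in the KO_Ctrl libraries. Its change was 3.13 (SE 0.20, limma adjusted p = 2.8e-09) and 3.01 without libraries 1 and 2. Of 63 glycolysis, glycogen and lactate genes 31 fell and 9 rose, and 23 falls and 8 rises held (median -0.43 and -0.34). Scaling by library totals gave a median of -0.19 for the fatty acid list and of -0.19 for the glycolysis list. The glycolytic gene gapdhs, a second glyceraldehyde phosphate dehydrogenase, was at 509.8, 766, 557 and 486 units in the KO_Cryoinjury libraries and at 242, 191, 246 and 282 units in the KO_Ctrl libraries, a change of 1.26 (SE 0.16, limma adjusted p = 7.63e-06) that held. The glycogen-targeting phosphatase subunit gene ppp1r3c was at 139, 117, 113 and 132 units in the KO_Cryoinjury libraries and at 305, 259, 293 and 266 units in the KO_Ctrl libraries, a change of -1.16 (SE 0.10, limma adjusted p = 5.94e-08).

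Markers of the non-muscle cells of the heart differed between lists. Of 35 epicardial markers, of the outer cell layer that is activated by injury, 21 rose and 4 fell, and 19 rises and 3 falls held (median 0.72 and 0.80). The transcription factor gene wt1b, a marker of activated epicardium, was at 41.6, 67.4, 39.2 and 56.9 units in the KO_Cryoinjury libraries and at 6.45, 7.27, 9.91 and 12.7 units in the KO_Ctrl libraries. The retinoic acid synthesis gene aldh1a2, of epicardium and endocardium, was at 434, 461, 478 and 511 units in the KO_Cryoinjury libraries, against 140.5, 116, 141 and 168 units in the KO_Ctrl libraries. All injured values were above all control values for both genes, with changes of 2.38 (SE 0.19, limma adjusted p = 3.35e-08) for wt1b and 1.74 for aldh1a2, and of 2.30 and 1.81 without those libraries. The growth factor gene mdk (ENSDARG00000036036), of midkine, was at 551, 924, 539 and 415 units in the KO_Cryoinjury libraries and at 45, 33.9, 39.3 and 33.5 units in the KO_Ctrl libraries, a change of 3.91 (SE 0.20, limma adjusted p = 3.46e-10). Of 36 fibroblast and mesenchymal markers 28 rose, 1 fell and 25 rises held (median 1.2 and 1.19). Several matrix genes stand in both these lists and the matrix lists, so their counts are not independent. The pentraxin gene ptx3 was at 49.9, 48.9, 25 and 48.1 units in the KO_Cryoinjury libraries and at 0.901, 0.808, 1.22 and 2.74 units in the KO_Ctrl libraries, with changes of 4.20 and 3.95.

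Of 58 endothelial and endocardial markers 14 rose and 16 fell, and 13 rises and 11 falls held. The held shares were 22.4% and 19%, near the 19.7% and 15.8% of all genes. The median of the list was -0.15, and 0.09 with scaling by library totals. Among the members that rose, the lipid receptor gene s1pr1 was at 19.1, 16.6, 17 and 22.3 units in the KO_Cryoinjury libraries and at 6, 7, 8.99 and 5.49 units in the KO_Ctrl libraries. Its change was 1.34 (SE 0.16, limma adjusted p = 3.49e-06), and it does not stand for the list. Of 30 measured red blood cell genes 6 fell with all libraries and 13 without libraries 1 and 2, and the median was -0.31 and -0.60. Among these genes 16.7% held lower, near the 15.8% of all genes. Their sums were 8186, 7545, 2894 and 6858 units in the KO_Cryoinjury libraries and 8562, 7289, 5258 and 6719 units in the KO_Ctrl libraries, so library 3 was below all other libraries. The amount of blood in each pool was not measured.

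Of 85 actin assembly and motility genes 59 rose and 6 fell, and 59 rises and 2 falls held (median 0.82 and 0.89). Of 61 integrins and cell surface genes 28 rose and 11 fell, and 41% held higher and 11.5% lower, beside 19.7% and 15.8% of all genes. The tetraspanin gene cd9b, of a membrane organiser, was at 231, 70.3, 37.7 and 38.8 units in the KO_Cryoinjury libraries and at 1.8, 0.673, 0.457 and 1.37 units in the KO_Ctrl libraries. Library 1 was far above the other 3 injured libraries, all 4 were above the controls, and the change was 5.15 (SE 0.54, limma adjusted p = 7.96e-07) with all libraries and 4.29 without libraries 1 and 2. The thioredoxin gene txnb, of a small redox protein, was at 104, 104, 86 and 90.9 units in the KO_Cryoinjury libraries and at 2.1, 2.69, 2.44 and 2.35 units in the KO_Ctrl libraries. Its injured values lay close together, and the change was 4.84 (SE 0.18, limma adjusted p = 1.99e-11) and 4.72 without libraries 1 and 2. Of the signalling genes, 15 rose and 14 fell of 56 growth factor and receptor kinase genes, near the 25.2% and 22.4% of all genes. Of 61 Wnt and Notch genes 16 rose and 19 fell, and 18% held higher and 23% lower, beside 19.7% and 15.8% of all genes. In the other signalling lists 16 rose and 7 fell of 52 TGF-beta, BMP and activin genes, 20 rose and 10 fell of 55 axon guidance genes and 14 rose and 7 fell of 33 genes of retinoic acid, thyroid and steroid signalling. In that order 30.8%, 21.8% and 33.3% held higher, beside 19.7% of all genes. The shares that held lower were 7.69%, 9.09% and 15.2%, beside 15.8%. The medians of the growth factor and the Wnt and Notch lists, -0.07 and -0.14, were 0.01 and 0.00 without libraries 1 and 2 and 0.15 and 0.08 with scaling by library totals. The insulin-like growth factor gene igf2b was at 111, 96.3, 108 and 87.6 units in the KO_Cryoinjury libraries and at 64.5, 66.4, 58.8 and 44.3 units in the KO_Ctrl libraries, a rise that held, with a change of 0.78 (SE 0.14, limma adjusted p = 0.000199).

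**Figure D4:**
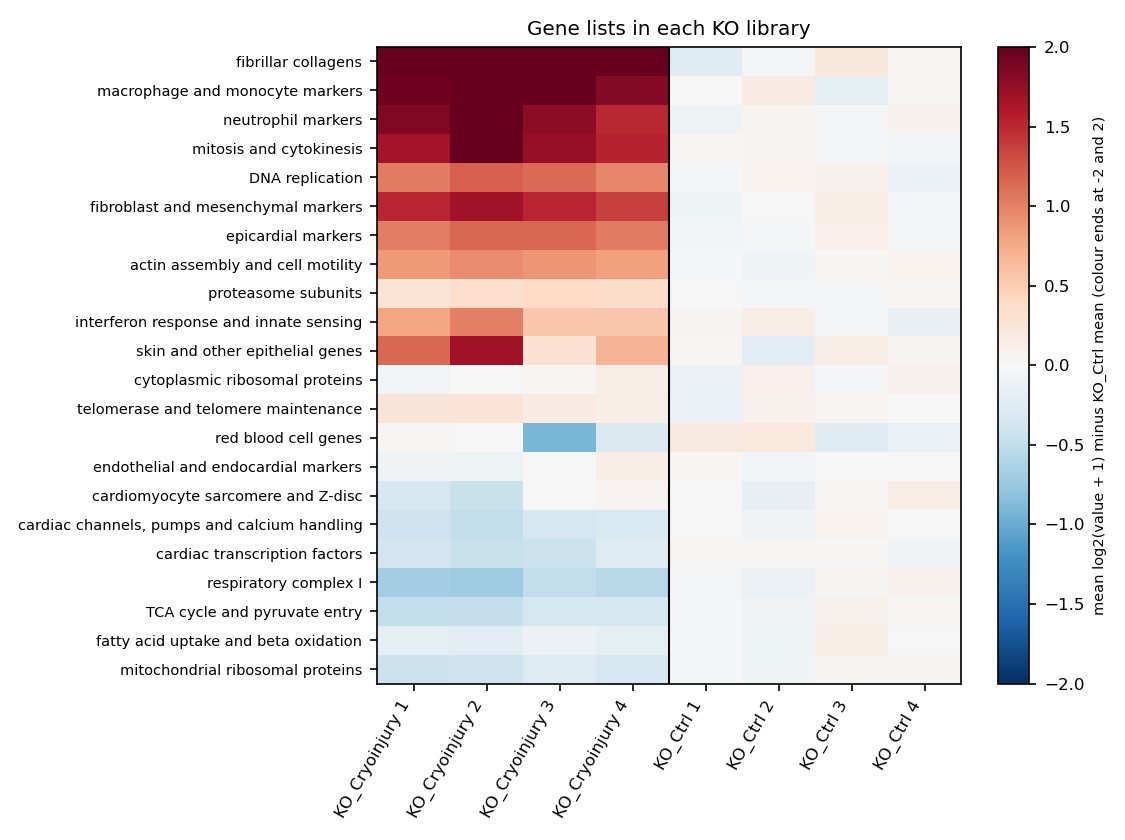
Mean log2(value + 1) of the measured members of 22 gene lists in each of the 8 KO libraries, minus the mean of the 4 KO_Ctrl libraries; red is higher, blue is lower and the colours saturate at a difference of 2 either way. The skin and other epithelial list is darkest in KO_Cryoinjury 2 and the red blood cell list lowest in KO_Cryoinjury 3, whereas the collagen, macrophage and mitosis lists are high in all 4 injured libraries.

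The epithelial list itself split into members that rested on libraries 1 and 2 and members that did not. Those libraries were set aside because their epithelial transcripts were high. Smaller changes of such genes without them therefore follow from that choice. Of 42 measured skin and other epithelial genes 26 rose and 3 fell with all libraries, and 16 rises and 1 fall held (median 0.68, and 0.37 without libraries 1 and 2). The desmosome gene pkp1 was at 38.58, 53.3, 1.84 and 6.68 units in the KO_Cryoinjury libraries and at 0.6, 0.808, 0.457 and 0.784 units in the KO_Ctrl libraries, with a change of 3.15 with all libraries and 1.49 without libraries 1 and 2, called both times. Libraries 1 and 2 were far above libraries 3 and 4, which were themselves above every control. The simple-epithelium keratin genes krt4 and krt18a.1 were much closer together among the injured libraries. For krt4 the values were 678, 784, 638 and 605 units in the KO_Cryoinjury libraries and 173, 163, 273 and 191 units in the KO_Ctrl libraries. The gene krt18a.1 was at 583, 880.3, 673 and 654 units in the KO_Cryoinjury libraries and at 150.3, 113, 143 and 158 units in the KO_Ctrl libraries. The changes were 1.78 and 1.66 for krt4 and 2.29 and 2.24 for krt18a.1, in the full and the reduced comparison. These keratins are also made by the epicardium, and both stand in the epicardial list as well.

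Besides cldni and psmb12, the largest rises that did not hold included other epithelial genes and immune genes of low level. For the epithelial genes this follows from the choice of libraries. The hemidesmosome collagen gene col17a1b was at 21.2, 12.6, 0.334 and 7.02 units in the KO_Cryoinjury libraries and at 0.15, 0.135, 0.305 and 1.57 units in the KO_Ctrl libraries. Library 3 lay within the control range, and the change of 2.38 became 1.18 without libraries 1 and 2 (adjusted p = 0.168). The claudin gene cldnb was at 12.7, 92.9, 1 and 5.68 units in the KO_Cryoinjury libraries and at 2.55, 0.269, 2.44 and 0.588 units in the KO_Ctrl libraries, with changes of 2.36 and 0.71. The call of cldnb was also lost when KO_Cryoinjury library 2, or KO_Ctrl library 2 or 4, was left out alone. The membrane protein gene ms4a17a.4 was at 17.4, 99.6, 0.334 and 10.1 units in the KO_Cryoinjury libraries and at 1.35, 0.269, 1.22 and 0.588 units in the KO_Ctrl libraries, with changes of 2.84 and 1.1. Its order among the injured libraries was that of cldnb. The osteopontin gene spp1, of a matrix protein secreted by macrophages among others, was at 10.7, 2.31, 0.668 and 1.45 units in the KO_Cryoinjury libraries and at 0.15, 0.269, 0.305 and 0 units in the KO_Ctrl libraries. Its change was 1.59 (SE 0.46, limma adjusted p = 0.00832), or 0.78 (SE 0.38, limma adjusted p = 0.115) without libraries 1 and 2. Of the 787 rises and 958 falls that did not hold, 66 and 25 were over 2-fold in the full comparison.

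A fit that kept all 16 libraries and used the score of the defining skin markers as a covariate gave 3125 rises and 2648 falls. Of the 2862 rises and 2295 falls that held, it called 2797 and 2203 in the same direction. These genes were already called in the same 16 libraries, and among KO libraries the score was highest in KO_Cryoinjury libraries 1 and 2. The agreement is therefore no separate support for the calls. The covariate fit rests on the assumption that every gene moves in proportion to that score, and it was not used for any value above.

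**Figure D5:**
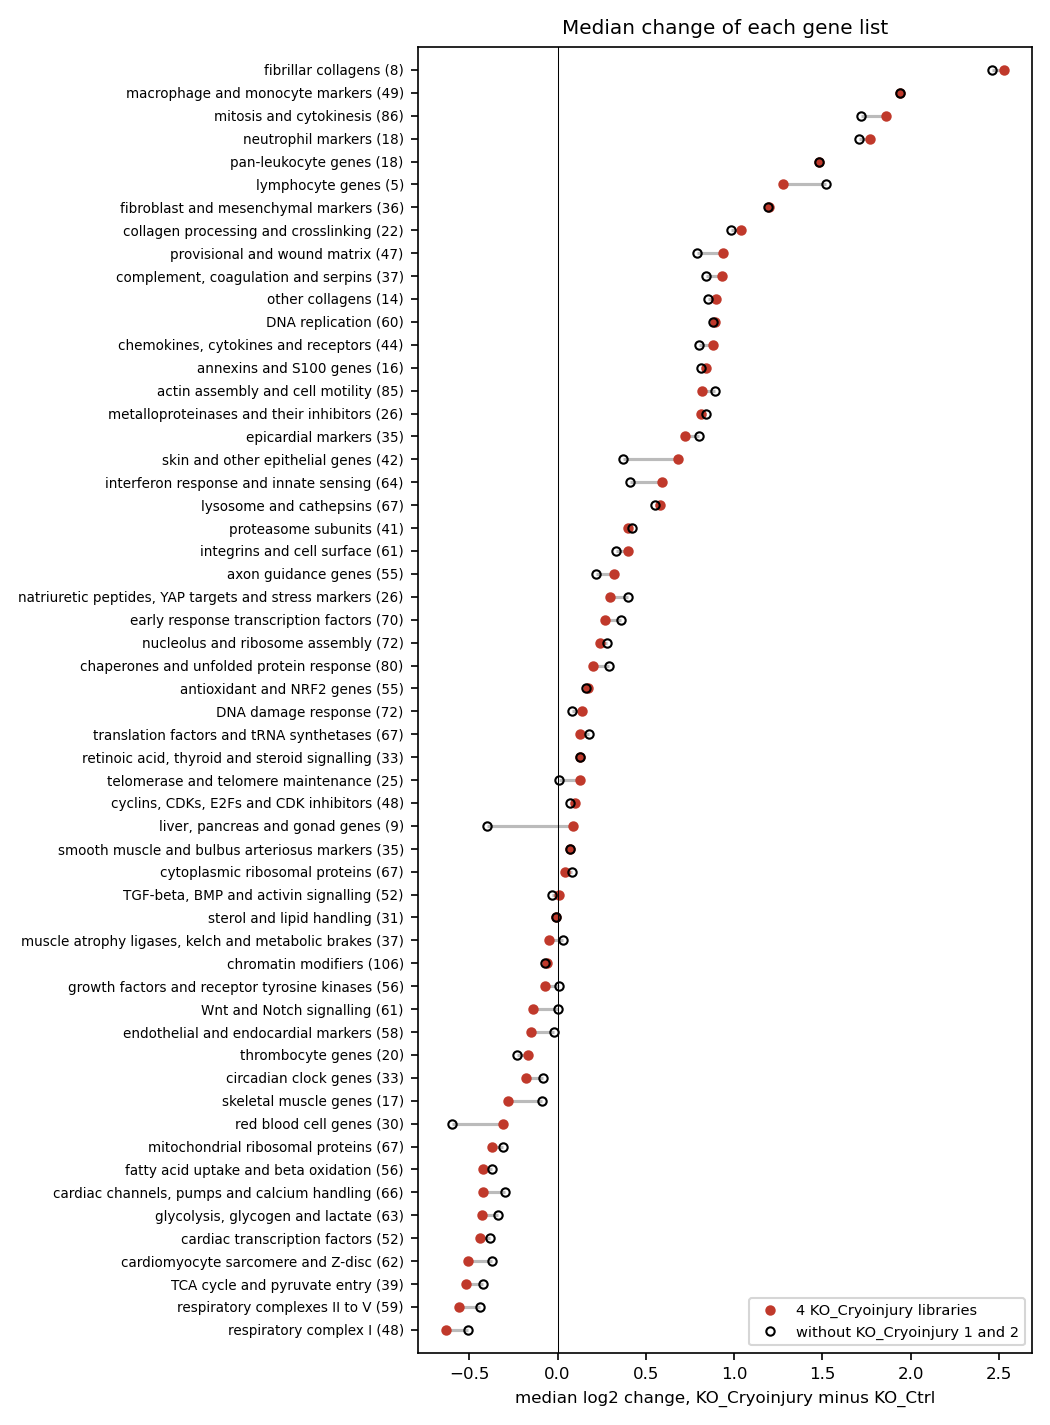
Median log2 change, KO_Cryoinjury minus KO_Ctrl, of the measured members of each gene list (number in brackets), from all 4 injured libraries (filled points) and without KO_Cryoinjury 1 and 2 (open points). Most pairs lie close together; the skin and other epithelial list lies at 0.68 with all libraries and 0.37 without those 2, and the red blood cell list at -0.31 and -0.60.

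By limma, with all libraries or without KO_Cryoinjury 1 and 2, the injury response of mutants was not shown to differ from that of WT hearts for any gene. The interaction of injury and genotype had 0 genes past the limma threshold with all libraries (0.0% of 14500) and 0 without KO_Cryoinjury 1 and 2, with 1191 and 1481 genes at an unadjusted p under 0.05. Both of these last counts exceed what evenly spread p-values would give, though genes can vary together. The smallest adjusted p was 0.112 with all libraries and 0.202 without libraries 1 and 2. With edgeR on the recovered reads 0 genes passed, with 1205 at an unadjusted p under 0.05, limma voom gave 0 and the DESeq2 Wald test gave 20, which are not named here. In WT hearts 3506 genes (24.2%) were higher and 3149 (21.7%) lower after the same injury. Beside the mutant values above, the WT log2 changes were 0.45 for fkbp5 and 0.86 for nr4a3, and the difference between genotypes was 1.79 (SE 0.59, limma adjusted p = 0.441) for fkbp5 and 1.82 (SE 0.73, limma adjusted p = 0.558) for nr4a3. Of the genes with values here the smallest adjusted p of that difference was for ptx3, with a log2 change of 4.20 in KO and 2.69 in WT hearts and a difference of 1.51 (SE 0.41, limma adjusted p = 0.384), followed by acsl4 (ENSDARG00000010752), with 3.13 in KO and 2.21 in WT hearts and a difference of 0.91 (SE 0.28, limma adjusted p = 0.418). Median falls of energy genes were smaller in size in KO than in WT hearts, at -0.63 and -0.87 for respiratory complex I, -0.56 and -0.85 for the other complexes, -0.52 and -0.84 for the citric acid cycle list and -0.42 and -0.68 for the fatty acid list. Without KO_Cryoinjury 1 and 2 these KO medians were -0.51, -0.44, -0.42 and -0.37, further from the WT values. Smaller falls in KO hearts were also seen in the sarcomere list (-0.51 and -0.71) and the glycolysis list (-0.43 and -0.61). The cardiac transcription factor list (-0.44 and -0.30) and the Wnt and Notch list (-0.14 and -0.08) went the other way. At an unadjusted interaction p under 0.05 were 15 of 48, 23 of 59, 15 of 39 and 20 of 56 members of the energy lists in the order first given, beside the 1191 of 14500 genes given above, and none passed the adjusted threshold. Other lists had many such members too, with 13 of 42 skin and other epithelial genes, 16 of 70 early response factors and 11 of 52 cardiac transcription factors. The macrophage list had 0 of 49. Members of a list can vary together, so these counts are descriptions and no test. No change described here was thus shown by limma to be particular to the mutant. A lack of calls does not show that the responses of the genotypes are equal.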

How the data were processed

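RNA of zebrafish hearts was sequenced, and 8 KO libraries of the 16 in the series were compared, grouped by their titles. Libraries were made from polyadenylated RNA with a kit that does not mark strand, per the labels' protocols, which leaves a gene and an overlapping antisense gene unresolved. The deposited values are a signal normalised by the authors, with 1 factor per library, by a method not given here. CASAVA 1.8.2, cutadapt, RSEM 1.2.3 and the build Zv9 are named without roles, per the submitters' processing notes. Each library's deposited signal proved to be whole reads times a constant (100% of values, tolerance 0.01 read), and these reads were recovered for the count tests. The table holds no gene whose 4th highest value is below 1.76 units, and low genes rest on few reads.

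The comparison was made on log2(value + 1) by limma 3.58.1 under R 4.3.3 with its trend option, with 4 group means over 16 libraries and 12 residual and 5.12 prior degrees of freedom. It was repeated without KO_Cryoinjury libraries 1 and 2. The p-values measure the spread between libraries that the labels call biological replicates, whose chi-square per degree of freedom was 7.07 to 18.8. Symbols came from a reference table that matched 11702 identifiers, in which 1219 shared a symbol with another, given then by identifier. The 57 gene lists hold 2355 measured genes. Members and lists were chosen with earlier results of these data known, so they are no independent evidence of direction. Reported genes are tert, the 10 largest rises and falls that held (own symbol, mean above the median gene, groups apart), up to 4 held members of each list by size, the largest calls that did not hold, and epithelial genes. Some genes that this rule names are not reported here. The genes myl7, nhp2, ruvbl2, terf1, pinx1, dclre1b, tnks, plaua, mxc, wt1b, the second gadd45b and the second myh6 were chosen after their values were seen. Alternatives were edgeR 4.0.16, DESeq2 1.42.0 and voom on recovered reads, other scalings, pseudocounts, filters and thresholds, a covariate of skin markers, replicate blocks and leaving out each library. The tests were tried on simulated data.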

Additional observations from a re-analysis of the deposited data

Results flagged for a closer look

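Of 162 groups of 4 libraries with values in the text, 13 held a library far from the other 3. The measure was Dixon's ratio of the library's gap to the group's range at the 95% level, taken on units and not on the log2 scale. Chance gives about 1 in 20 groups where values are normally distributed, which units need not be. Some genes were chosen after their values were seen, so this rate is no test of the count. Among injured hearts KO_Cryoinjury library 2 was the highest in mmp13a (gap 0.953 of the range), plaua (0.9), acsl4 (ENSDARG00000010752; 0.881), cldnb (0.873) and mxc (0.865). KO_Cryoinjury library 1 was the highest in spp1 (0.836) and cd9b (0.831), and library 3 was the lowest in ptx3 (0.929). In control hearts KO_Ctrl library 4 was the highest in grna.1 (0.889) and col17a1b (0.881). KO_Ctrl library 3 was the highest in mcm6 (0.892), library 2 the lowest in epcam (0.879) and library 1 the lowest in dkc1 (0.839). The part of a single library in these genes was not tested beyond the fits that leave it out.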

How the results depend on the processing

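The count of rises stayed within 1.5 times the 3649 of the full comparison under every alternative but a filter at a mean of 10 units, which tests fewer genes and gave 2130. The largest count of rises, 5330 with scaling by library totals alone, was close to that bound. The count of falls, 3253, became 1540 with scaling by library totals alone, 2167 at a threshold of 0.01 and 2162 without KO_Cryoinjury 1 and 2 when a replicate block was added. Library totals lower the share of falls among calls from 47.1 to 22.4%. Leaving out any single library gave 3316 to 3484 rises and 2799 to 3093 falls. The interaction with genotype had 0 genes and became 1 without KO_Ctrl library 4, 1 with a replicate block over 16 libraries and 20 with the DESeq2 Wald test. The tools gave 3570 rises and 3193 falls (edgeR), 3494 and 3098 (DESeq2) and 3434 and 3109 (voom). Same-numbered KO libraries deviated together with correlations of 0.042, 0.116, 0.099 and 0.189, not all above 0.1; KO_Cryoinjury 2, 3 and 4 correlated best with their own number and KO_Cryoinjury 1 with KO_Ctrl 2 (0.094), a hint from the data that the labels leave unsettled, and the samples were treated as unpaired; the block over 8 KO libraries gave 3480 rises and 3047 falls. The change of tert, never called, was -0.0229 without KO_Cryoinjury 1 and 2 with that block. Low genes in the shallowest libraries limit what was detectable, and 2 injured libraries limit the reduced comparison.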
